A study of Mus musculus with 4 samples.

Results

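The cytosolic ribosomal protein genes were those named Rpl or Rps plus a number on the array, alone or with a final a or x. The P-stalk genes Rplp0, Rplp1 and Rplp2 were included, and names with any other ending, such as Rps27l and Rpl22l1, were left out. The rule used names alone and gave 75 of 36413 gene names, measured by 159 of 55681 probes. Of the 75 genes, 43 encode large-subunit proteins, 29 encode small-subunit proteins and 3 encode P-stalk proteins. A single probe stood for 24 genes, and the remaining 51 genes had from 2 to 7 probes, which share a transcript and are not independent.

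The cells were C2C12, an established mouse myoblast line. They were transfected transiently, with Lipofectamine, with an siRNA against exon 14 of Fxr1 (siFxr1) or with a control siRNA of matching GC content (siControl), and RNA was taken 48 h later. Each condition was run in 2 experiments, which gave 4 one-colour arrays, and by their titles the arrays of an experiment shared a slide. RNA quality, as the integrity number, was 8 for the siFxr1 sample of experiment 1 and 9 for the other 3 samples. The experiments are described in the methods as biological replicates, and slide and experiment cannot be told apart. In such bulk samples fewer cells of a type and less RNA per cell cannot be told apart.

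Ribosomal proteins assemble with ribosomal RNA into the small subunit, which reads the mRNA, and the large subunit, which joins amino acids. The P-stalk proteins form the flexible arm of the large subunit that recruits translation factors. The mRNAs of these proteins are among the most abundant of a growing cell, and most of them begin with a run of pyrimidines, the 5′ terminal oligopyrimidine (TOP) tract, through which their translation is controlled together.

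The sequence of the siRNA is shown because it defines the perturbation, and the stretches of probes are shown because the probes of 1 gene gave different differences. For Rpl30, Rpl31 and Rps25, bases 16 to 45 of the 60-base probe are given, with the brightest probe on the gene's own chromosome first. For Rpl7a, the first 30 bases are given of a pair of probes that the array annotation puts at the same 60 bases, and capitals mark the bases at which they differ.
Fxr1 siRNA: gcaauccauacagcuuacuugaua
Rpl30 A_55_P1952475: caataatattgaactgggcacagcgtgtgg
Rpl30 A_55_P2104941: tgatcggacaaggcaaagcgaagttggtta
Rpl30 A_66_P125437: gctctggattataatcctctcttctgtcct
Rpl31 A_55_P2038299: agcgcatccatggagtaggcttcaagaagc
Rpl31 A_51_P452820: gtttatgtgtgagcctaagattaggtaaag
Rps25 A_55_P2137186: ggtctcaaagcacagagcccaagtaattta
Rps25 A_52_P436318: tttattgaatcaaatgaatgggtgcatctg
Rpl7a A_55_P2001347: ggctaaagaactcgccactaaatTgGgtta
Rpl7a A_55_P2037922: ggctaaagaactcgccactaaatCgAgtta

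Fxr1 itself had a normalized log2 intensity of 13.84 and 13.71 in siControl and of 10.15 and 10.77 in siFxr1 (experiments 1 and 2), a difference of -3.31 (SE 0.29), or 9.93-fold less signal. Of 7 myoblast markers, 6 were well above background on all 4 arrays, Myf5 being the exception, while 1 of 7 markers of endothelium, leukocytes, epithelium and adipocytes was, the endothelial Cdh5 at a mean level of 6.30. Between 45.4% and 52.9% of probes were well above background per array, and no spot was saturated. The number of arrays limits the precision, since with 2 samples against 2 an exact two-sided permutation test of a single value cannot give a p below 0.333.

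The member probes were bright. On the normalized log2 scale, 157 of the 159 were well above background on all 4 arrays, their median level was 17.35 against 10.29 for all 23500 probes measured in this way, and 145 lay in the brightest 10% of all probes (mean level at least 12.79). Members made up 16.2% of the 622 probes at a level of 17 or more. The signal of a probe also depends on its sequence, so these levels describe probes and do not rank the genes by abundance. An Rps15a probe (A_52_P491433) was well above background only in siFxr1 of experiment 2, with 4.73 and 4.45 in siControl and 5.07 and 5.61 in siFxr1, and is not counted among the measured probes.

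**Figure D1:**
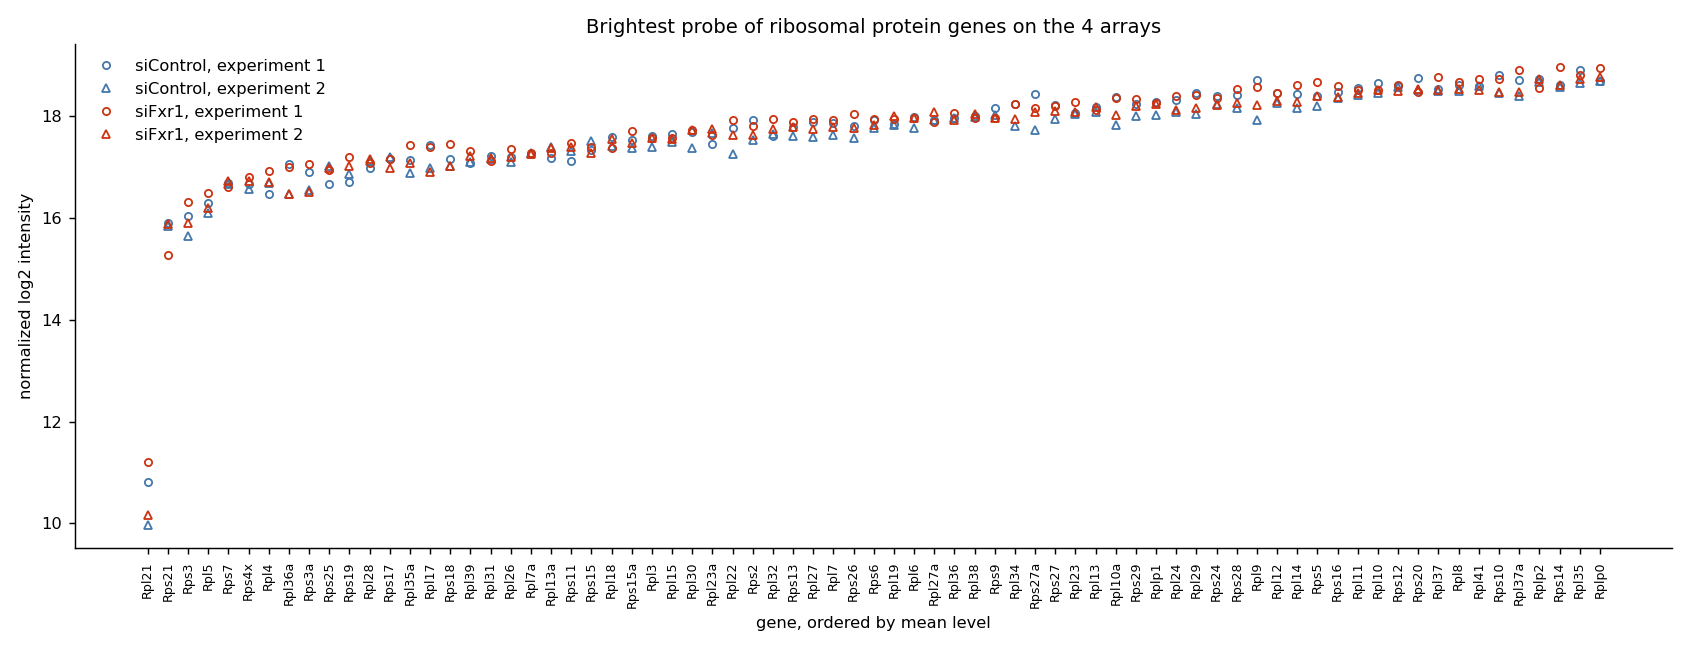
Normalized log2 intensity (vertical axis) of the brightest probe of each of 73 genes, ordered by its mean level, with 1 point per array, blue for siControl, red for siFxr1, circles for experiment 1 and triangles for experiment 2. All genes but Rpl21, at 10.53, lie above 15 and the 4 points of a gene mostly fall close together.

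In Fxr1-depleted myoblasts the member probes differed little from the control, and the small differences were more often upward than downward. The median difference (siFxr1 minus siControl) over the 157 measured member probes was 0.09 in experiment 1 and 0.08 in experiment 2, and the middle 50% of the mean differences ran from 0.00 to 0.15. Over all measured probes the medians were 0.04 and -0.02, and the middle 50% ran from -0.27 to 0.26. The signal was higher in siFxr1 in both experiments for 76 member probes (48.4%, against 32.7% of all probes) and lower in both for 14 (8.92%, against 31.1%), while 66 went opposite ways. The 2 siFxr1 arrays lay above both siControl arrays for 26 member probes (16.6%, against 15.3% of all) and below both for 2 (1.27%, against 14.5% of all). Bright probes as such were less often lower. At a level of 17 or more, 48.5% of members and 37.6% of other probes were higher in both experiments, and 7.92% and 22.6% lower. At that level, siFxr1 lay above siControl without overlap for 15.8% of members and 16.5% of other probes, and below for 0.99% and 4.22%. Counting each gene once by its brightest probe gave 38 genes higher in both experiments and 3 lower, of 75, where 33.3% and 30.1% of all genes were higher and lower.

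The size of this shift depended on how the arrays were scaled. With each array set to its 75th percentile in place of quantile normalization, the member medians were 0.39 in experiment 1 and 0.01 in experiment 2, against 0.11 and -0.01 for all measured probes, and the split became 84 higher against 3 lower. The sign of the mean shift was positive under both scalings. As a difference of group means, the member median was 0.08 with all 4 arrays, -0.0067 without siControl of experiment 2, 0.0051 without siFxr1 of experiment 1, 0.166 without siControl of experiment 1 and 0.17 without siFxr1 of experiment 2. The experiments themselves differed more than the conditions: experiment 1 exceeded experiment 2 by a median of 0.15 in siControl and 0.15 in siFxr1, and did so in both conditions for 105 of 157 member probes, against 42.0% of all probes. Whether RNA integrity or slide had a part in these values was not tested.

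No member passed the test. By limma with condition alone, 0 of 159 member probes had B, the log odds of a difference, above 0, and 0% of all 55681 probes did. The lowest adjusted p of a member was 0.964, and Fxr1 itself had an adjusted p of 0.95 there. In simulated data with experiments differing as here, this condition-only fit recovered 0 of 200 changes of 3 log2. Its count of 0 therefore cannot show that the members were unchanged. At an unadjusted p under 0.05 there were 2 members, Rpl30 A_66_P125437 and Rpl31 A_51_P452820, or 1.26% of members against 4.96% of all probes. With the experiment as a replicate block and probes dim in both conditions left out, 1.39% of 25540 probes had B above 0, Fxr1 among them (adjusted p = 0.0173), and again 0 of 157 members. In that limma fit 3 members (1.91%) had an unadjusted p under 0.05, against 18.6% of all probes.

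**Figure D2:**
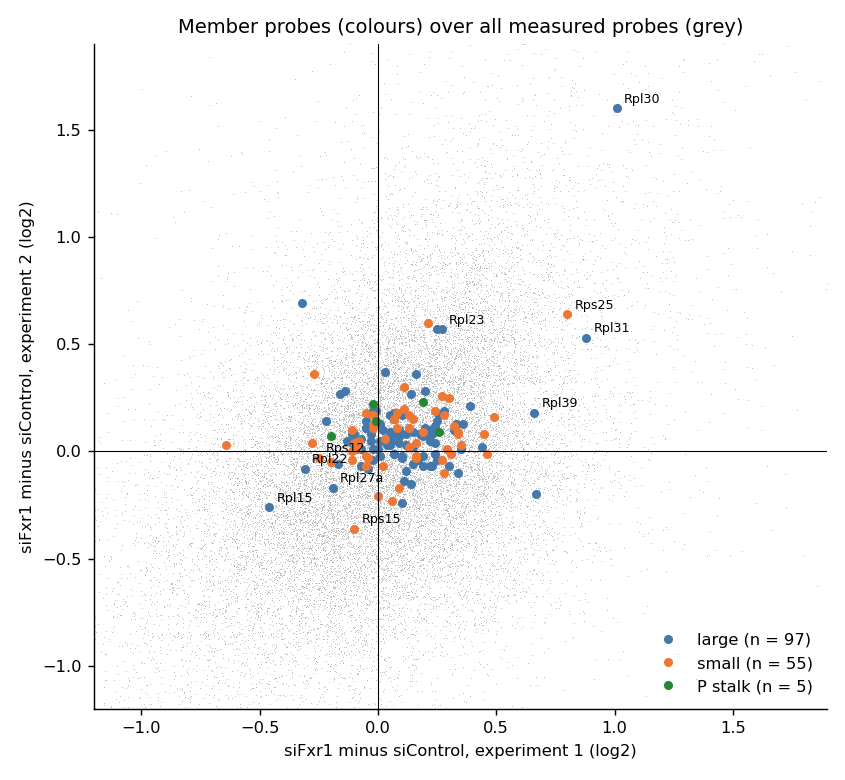
Difference between siFxr1 and siControl in experiment 1 (horizontal axis, log2) and experiment 2 (vertical axis, log2), for 157 member probes coloured by subunit and all other measured probes in grey, within the plotted range. Most members gather near 0 and the Rpl30 probe at 1.01 and 1.60 stands apart.

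The P-stalk genes gave the brightest signals. Rplp0, the protein that anchors the stalk to the large subunit, lay at 18.68 and 18.68 in siControl and at 18.94 and 18.77 in siFxr1 (experiments 1 and 2). Its siFxr1 arrays were both higher, by 0.26 and 0.09, and its other probes had mean differences of 0.21 and 0.07. Rplp1, which forms dimers with Rplp2 on the stalk, lay at 18.28 and 18.02 in siControl and at 18.26 and 18.23 in siFxr1, where the groups overlapped. Rplp2 lay at 18.73 and 18.66 in siControl and at 18.54 and 18.73 in siFxr1, lower in experiment 1 by 0.20 and higher in experiment 2 by 0.07. Taking the 5 P-stalk probes, 2 were higher in both experiments and 0 were lower.

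Large-subunit probes had median differences of 0.09 and 0.07 in experiments 1 and 2, and 48 of 97 were higher in both experiments and 7 lower. Rpl35 was the brightest of them, at 18.90 and 18.64 in siControl and 18.80 and 18.72 in siFxr1. Rpl37a lay at 18.70 and 18.39 in siControl and at 18.90 and 18.47 in siFxr1. In both genes the groups overlapped.

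Rpl5, Rpl11, Rpl23 and Rpl26 encode large-subunit proteins known to act on the Mdm2 and p53 pathway outside the ribosome. Rpl5 lay at 16.28 and 16.09 in siControl and at 16.49 and 16.19 in siFxr1. Rpl11 lay at 18.55 and 18.40 in siControl and at 18.51 and 18.45 in siFxr1. Rpl26 lay at 17.19 and 17.09 in siControl and at 17.34 and 17.19 in siFxr1. The groups overlapped in all 3 genes. The brightest Rpl23 probe did not overlap, with 18.05 and 18.03 in siControl and 18.28 and 18.08 in siFxr1.

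Rpl3 and Rpl10 encode core large-subunit proteins, Rpl10 being among the last to join. Rpl3 lay at 17.60 and 17.38 in siControl and at 17.57 and 17.56 in siFxr1. Rpl10 lay at 18.64 and 18.45 in siControl and at 18.51 and 18.50 in siFxr1. Rpl22, which binds RNA and has a partner paralog in Rpl22l1, lay at 17.76 and 17.26 in siControl and at 17.92 and 17.62 in siFxr1. In these 3 genes the ranges of the groups overlapped.

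Rpl38, which is known for the selective translation of some developmental mRNAs, lay at 17.99 and 17.97 in siControl and at 17.96 and 18.04 in siFxr1. Rpl13a, a protein that also silences transcripts of the interferon response, lay at 17.18 and 17.38 in siControl and at 17.28 and 17.36 in siFxr1. The groups of both genes overlapped. Rpl32, which is often used as a reference gene, lay at 17.61 and 17.64 in siControl and at 17.93 and 17.74 in siFxr1, where they did not.

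Small-subunit probes had median differences of 0.11 and 0.06, with 26 of 55 higher in both experiments and 7 lower. Rps6, the substrate of S6 kinase, lay at 17.91 and 17.77 in siControl and at 17.94 and 17.82 in siFxr1. Rps3, at the mRNA entry channel, lay at 16.04 and 15.64 in siControl and at 16.31 and 15.89 in siFxr1. Both genes overlapped between groups, the brightest Rps3 probe with nearly the same difference (0.27 and 0.26) in both experiments. The dimmer Rps3 probe, at a mean level of 10.93, went opposite ways, with 0.28 and -0.10.

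Rps19, which is mutated in Diamond-Blackfan anemia, lay at 16.70 and 16.86 in siControl and at 17.19 and 17.02 in siFxr1. Both siFxr1 arrays were higher, by 0.49 and 0.16. Rps27a, made as a fusion with ubiquitin, lay at 18.42 and 17.73 in siControl and at 18.15 and 18.08 in siFxr1 by its brightest probe. The difference of that probe turned from -0.27 to 0.36. The other measured Rps27a probes, at mean levels of 17.01 and 6.71, were higher in both experiments, with mean differences of 0.20 and 0.40. Rps14 was among the 5 brightest genes, with 18.61 and 18.56 in siControl and 18.96 and 18.60 in siFxr1.

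The differences of members varied with the brightness of the probe. Of the 145 bright member probes, 89 (61.4%) were within 0.2 of 0 in both experiments, against 22.9% of the 5569 brightest probes of the array. Bright probes as such spread less: at a level of 17 or more, 67 of 101 member probes (66.3%) and 283 of 521 other probes (54.3%) were within that limit. The count fell to 6 members (4.14%) under the 75th percentile scaling, against 14.1% of all bright probes, since the members then lay near 0.39 in experiment 1. Other bright probes moved in the same way, with a median at a level of 17 or more of 0.34 in experiment 1 under that scaling. Quantile normalization gives every array the same distribution, so the differences of these bright probes compare ranks near the top of each array.

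**Figure D3:**
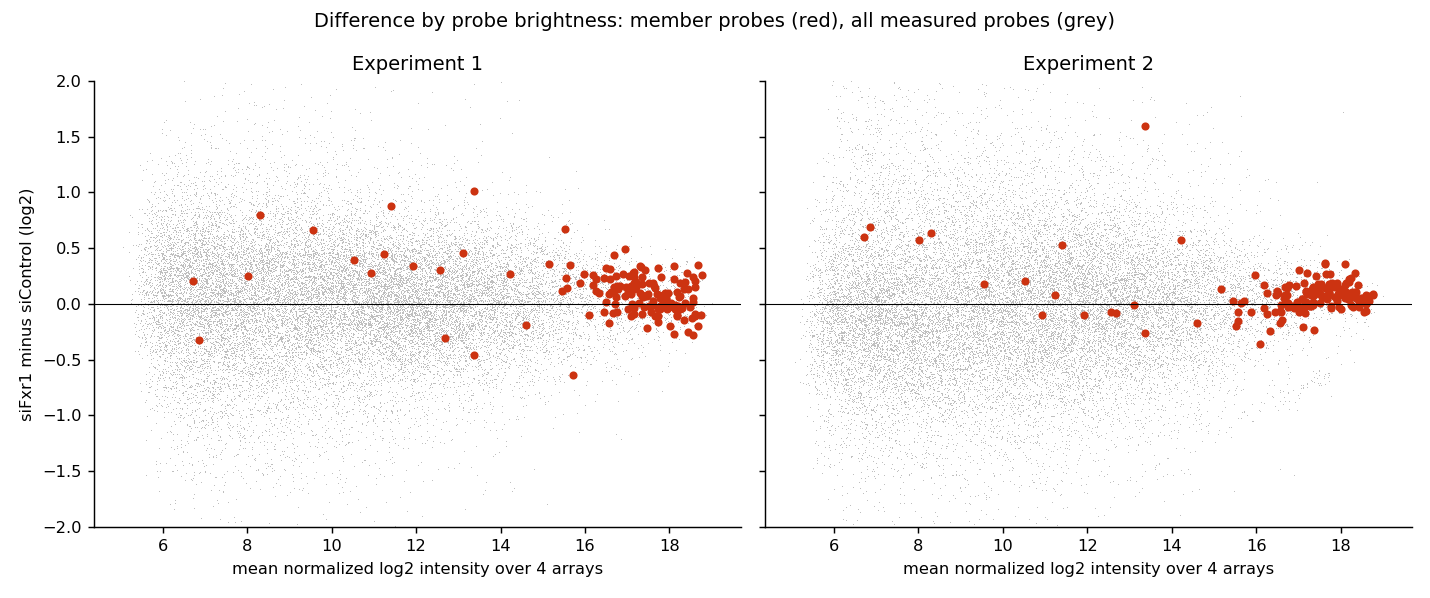
Difference between siFxr1 and siControl (vertical axis, log2) against mean normalized log2 intensity (horizontal axis) in each experiment, member probes in red and all measured probes in grey, within 2 log2 units of 0. The red points narrow above a level of 16 and spread below 15.

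The smallest differences of bright probes belonged to Rpl17, Rpl7a, Rpl12, Rps24 and Rpl38, each under 0.05 in both experiments. Rpl7a A_55_P2001347 lay at 17.26 and 17.28 in siControl and at 17.27 and 17.26 in siFxr1. Its partner at the same annotated place on mm9, A_55_P2037922 (chr2:26768759-26768818, plus strand), differed from it at 6 of 60 bases, 2 of them in the stretch shown above, and lay at 15.61 and 15.54 in siControl and at 15.75 and 15.39 in siFxr1. The Rpl12 probe lay at 17.58 and 17.44 in siControl and at 17.56 and 17.45 in siFxr1.

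Dimmer members spread more widely, although the largest single difference, in Rpl30, and most of the lowest ones belonged to probes of the brightest 10%. Of the 12 measured member probes outside the brightest 10%, 7 were higher in both experiments and 1 was lower, with medians of 0.32 and 0.19. The gap between experiments was wider in these 12 probes, experiment 1 being higher by medians of 0.82 in siControl and 0.98 in siFxr1, and its part in their differences was not tested. Their median GC content was 40.8% against 45.0% for bright members. In 15 genes the brightest and dimmest measured probes were 3 or more log2 units apart. Of 13 such dimmer probes with both places known on the gene's own chromosome, 10 lay 3′ of the brightest probe, by 202 to 1659 bases of genomic sequence, and 3 lay 5′ of it, by 1818 to 2235 bases. Annotation of exons for this build was not used here, so these places are not assigned to exons, introns or untranslated regions.

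Rpl30, a large-subunit protein that also binds RNA outside the ribosome, was the only gene with a probe at least 2-fold different in the same direction in both experiments, as 2.42% of all measured probes were. This probe, A_66_P125437 (mm9 chr15:34372831-34372890, minus strand), lay at 13.02 and 12.42 in siControl and at 14.03 and 14.02 in siFxr1. Both siFxr1 arrays lay above both siControl arrays, with differences of 1.01 and 1.60 and a mean of 1.31 (SE 0.28), or 2.48-fold, and an adjusted p of 0.964 by limma. The 2 brighter Rpl30 probes were centred 428 and 1818 bases 3′ of it, at chr15:34372403-34372462 and chr15:34371013-34371072 on the minus strand. They had mean differences of 0.24 and 0.20, with 17.24 and 16.91 against 17.44 and 17.19 for the nearer and 17.69 and 17.36 against 17.72 and 17.72 for the farther probe. The array annotation assigns both of these to 3 RefSeq records of Rpl30, and the dimmer probe to 1 of them. With no background correction, the block and the filter on dim probes together, a setting added after the data were seen, 2.45% of probes had B above 0 and this was the only member among them (adjusted p = 0.00314, limma), and with the block and filter alone its adjusted p was 0.0821.

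Rpl31 and Rps25 followed. The Rpl31 probe A_51_P452820 lay at 11.04 and 11.06 in siControl and at 11.91 and 11.59 in siFxr1, with no overlap, and its mean difference was 0.70 (SE 0.19). The other 3 Rpl31 probes had mean differences from -0.03 to 0.07. The Rps25 probe A_52_P436318 lay at 8.46 and 7.42 in siControl and at 9.26 and 8.07 in siFxr1, a mean difference of 0.72 (SE 0.64) with overlapping groups, while the brighter Rps25 probe had 0.12. Rps25 encodes a small-subunit protein known for its role in initiation at internal ribosome entry sites.

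**Figure D4:**
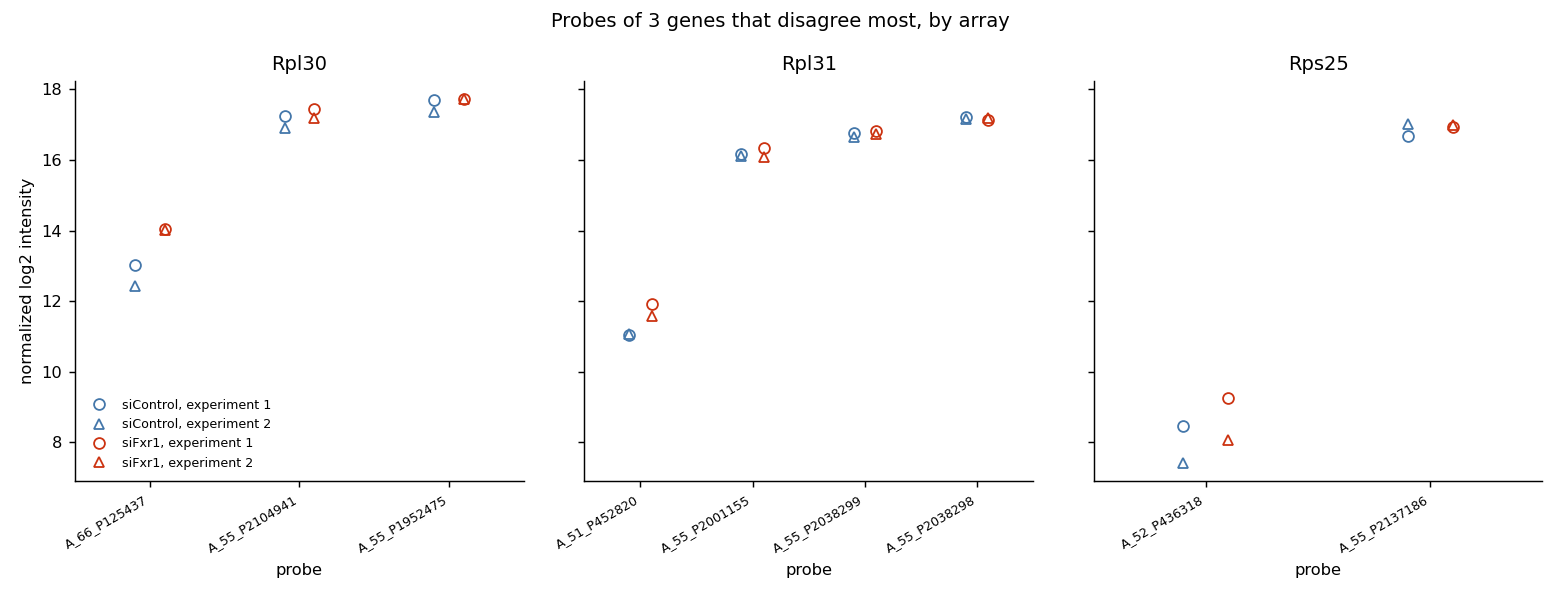
Normalized log2 intensity (vertical axis) on each array for all measured probes of Rpl30, Rpl31 and Rps25, the 3 genes whose probes disagree most, ordered by mean level (blue siControl, red siFxr1, circles experiment 1, triangles experiment 2). In each gene the dimmest probe has the widest gap between conditions.

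The next rises in order of size were in Rpl39 A_66_P126080, with 9.90 and 8.80 in siControl and 10.57 and 8.98 in siFxr1, and Rpl23 A_51_P108190, with 14.21 and 13.83 in siControl and 14.48 and 14.40 in siFxr1. The Rpl23 probe was printed in 10 spots per array, whose log2 signals had an SD of 0.052 to 0.072, and its siFxr1 arrays lay above both siControl arrays. On the lower side, Rpl15 A_66_P140976 lay at 14.03 and 13.06 in siControl and at 13.57 and 12.79 in siFxr1, a mean difference of -0.36 (SE 0.51) that was smaller than the gap between experiments. Rps15 A_66_P124555 (-0.23), Rpl22 A_52_P391718 (-0.20), Rpl27a A_51_P132459 (-0.18) and Rps12 A_55_P1963080 (-0.14) completed the 5 lowest, the last turning to 0.0142 under the 75th percentile scaling. The brightest Rpl22 probe went the other way, with 0.26.

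The probes of a gene were also compared with each other. Of 50 genes with 2 or more measured probes, all probes were higher in both experiments in 13 and lower in both in 0. In 5 genes, Rpl22 and Rpl27a among them, there were probes of both kinds. These counts were not made for other genes of the array, so they are not a result particular to the members. Rpl7, a large-subunit protein, had 4 probes, all higher, with mean differences from 0.11 to 0.23. Rps13, which sits where the subunits meet, had 2 probes, both higher, at 0.13 and 0.28. The following were chosen after their values were seen. The experiments disagreed most in a dim Rpl6 probe (-0.32 and 0.69), an Rpl17 probe (0.67 and -0.20) and the single Rps21 probe (-0.64 and 0.03). The Rps21 probe lay at 15.90 and 15.84 in siControl and at 15.26 and 15.87 in siFxr1, so that 1 array, siFxr1 of experiment 1, set its difference. Rpl9 differed more between experiments than between conditions, with 18.71 and 17.92 in siControl and 18.57 and 18.21 in siFxr1.

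Of the 159 probes, 11 were annotated on another chromosome than their gene, 4 for Rps27, 3 for Rps29 and 1 each for Rpl13, Rpl31, Rpl36 and Rps4x. An Rps2 probe (A_55_P2070347), not among the 11, was annotated on the gene's own chromosome but 18007258 bases from the brightest Rps2 probe. Predicted transcript records were also listed for 61 probes. Processed copies of ribosomal protein genes are common, so signal of such probes may be shared with near-identical copies. The 11 probes had median differences of 0.07 and 0.13, and the 61 probes of 0.09 and 0.08, against 0.09 and 0.07 for the 96 measured probes with no predicted record.

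The start of the mRNA was examined for a TOP-like tract in RefSeq windows of GRCm38.p6, which held 64 windows for 54 of the 75 genes. A C followed by at least 4 pyrimidines, beginning within 5 bases of the annotated start on the transcript strand, was found in 43.8% of the 64 windows and in 18.3% of all 32851 windows. The 4 example genes with such a match are shown from 15 bases before the annotated start onward for 30 bases, with the tract in capitals. They are Rps6 (chr4:86857353-86857382, minus strand), Rpl38 (chr11:114668565-114668594, plus strand), Rplp2 (chr7:141447636-141447665, plus strand) and Rpl13a (chr7:45128731-45128760, minus strand).
Rps6: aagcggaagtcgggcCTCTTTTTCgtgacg
Rpl38: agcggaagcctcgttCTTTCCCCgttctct
Rplp2: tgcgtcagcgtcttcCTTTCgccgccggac
Rpl13a: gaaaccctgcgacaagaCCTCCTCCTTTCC
The 26 genes with a match had median differences of 0.00 and 0.07 by their brightest probe, with 11 higher in both experiments and 2 lower. The 28 genes without one had 0.13 and 0.08, with 16 higher and 0 lower. A match describes the annotated start and not the start used in these cells.

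Other genes of the same pathways were compared by the brightest probe of each. Of all genes, 33.3% were higher in both experiments and 30.1% lower. The mitochondrial ribosomal proteins had medians of 0.12 and 0.31, with 47 of 74 genes (63.5%) higher in both experiments and 10 (13.5%) lower. The factors that build ribosomes had 0.16 and 0.24, with 34 of 55 (61.8%) higher and 6 (10.9%) lower. Translation factors had 0.12 and 0.13, with 16 of 36 (44.4%) higher and 7 (19.4%) lower. Of these, Ddx21, a nucleolar helicase, lay at 12.78 and 12.12 in siControl and at 13.39 and 12.91 in siFxr1, and Eif5, an initiation factor, at 14.07 and 14.39 in siControl and at 13.42 and 13.76 in siFxr1. Eif5 was lower in both siFxr1 arrays, and Ddx21 higher. None of these genes passed the limma test, in which no probe of the array was called.

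**Figure D5:**
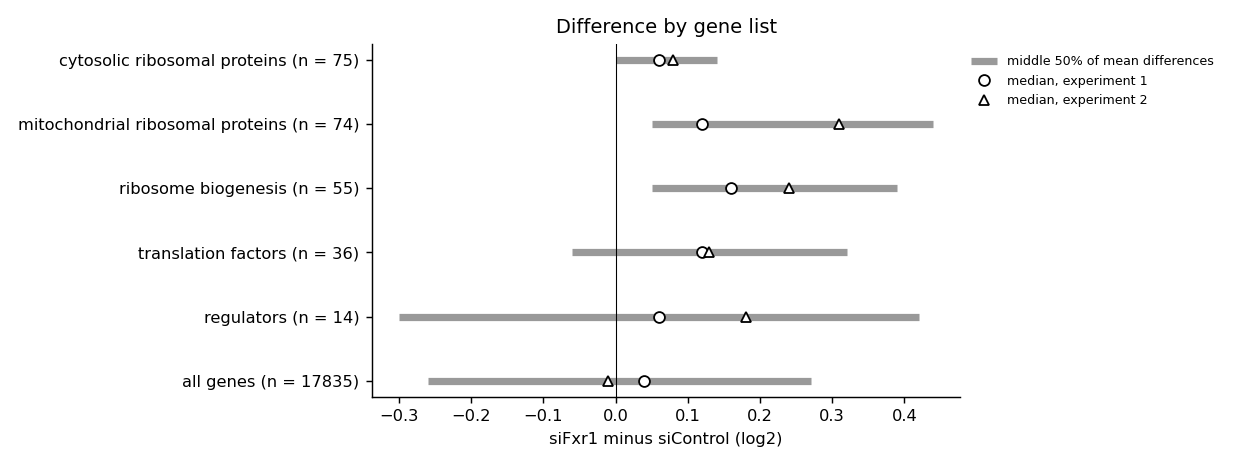
Median difference between siFxr1 and siControl (horizontal axis, log2) by gene list in experiment 1 (circle) and experiment 2 (triangle), with the middle 50% of the genes' mean differences as a grey bar and 1 probe per gene. The cytosolic ribosomal proteins have the narrowest bar of the 6 lists and also the highest median level, 17.86 against 10.8 for all genes. Bright probes as such spread less: for other probes at a level of 17 or more, the middle 50% ran from -0.07 to 0.12.

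Of 11 ribosomal protein genes or paralogs outside the name pattern, 8 were measured, with medians of 0.05 and 0.09, 3 higher in both experiments and 1 lower. Rpsa, a small-subunit protein, lay at 18.25 and 18.41 in siControl and at 18.39 and 18.40 in siFxr1, with a difference that turned from 0.15 to -0.01. Rps27l, a paralog of Rps27 known as a p53 target, lay at 16.27 and 15.67 in siControl and at 16.78 and 16.61 in siFxr1, with no overlap and a mean difference of 0.73 (SE 0.28). Rpl22l1, the paralog of Rpl22, lay at 15.86 and 14.96 in siControl and at 15.69 and 14.41 in siFxr1. The 14 regulators of ribosome production and translation had medians of 0.06 and 0.18, with 7 higher and 5 lower. Among them, Mdm2, the ubiquitin ligase that some ribosomal proteins bind, lay at 14.35 and 14.37 in siControl and at 15.07 and 15.81 in siFxr1, and Eif4ebp2, a repressor of translation initiation, at 12.83 and 12.83 in siControl and at 12.19 and 11.86 in siFxr1. For both, the groups did not overlap and the adjusted p by limma was above 0.9, as for all genes.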

How the data were processed

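RNA of 4 C2C12 samples was hybridised by the authors to one-colour Agilent arrays and read with Feature Extraction 10.7.3.1; probe places are those of mm9. The deposited intensity per spot is background-corrected by that software. Per the labels, the authors used limma, and their methods name quantile normalization and B above 0. Here the deposited background-corrected intensity of 59305 non-control spots was log2-transformed and quantile-normalized, which gives every array the same distribution and thus ties the brightest probes to rank, outlier spots were dropped, and spots of a probe were averaged (55681 probes). Differences were fitted with limma 3.58.1 in R 4.3.3, condition only, with Benjamini-Hochberg adjustment over all probes. In simulated data with experiments alike, this fit and a fit with a replicate block each recovered 200 of 200 changes of 3 log2. With experiments differing as in these data, the condition-only fit recovered 0 of 200 and the block fit 200. The simulation gave every probe the same noise and the same change in both experiments. It therefore does not show what the block fit would find on the real arrays. There the block fit without a probe filter had B above 0 for 0 of 55681 probes, with a lowest adjusted p of 0.535 (limma). A probe counted as measured when at least 0.5 of its spots were well above background on all 4 arrays. Same-numbered samples are 1 experiment per the labels, and their deviations from the group means correlated at 0.714, so a replicate block was fitted as an alternative. Other alternatives were the 75th percentile scaling, normexp with offset 50, no background correction, the normalized table of the authors, median over spots, probe filters, thresholds and leaving out each array. Genes were named when called, 2-fold in both experiments, among the 5 highest, 5 lowest, 5 brightest or 5 least different, in a list of examples, or among the 3 whose probes disagreed most. Members, lists and this rule were chosen with earlier results of these data known. Some genes are not reported here by name.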

Additional observations from a re-analysis of the deposited data

How the results depend on the processing

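Signal over background limited 2 of the 159 member probes. Among alternative fits of all 4 arrays, the count of called members was 0 but for 1 in the added setting. That setting joined no background correction, the block and the filter on dim probes, and called 626 of 25540 probes. The replicate block (paired by experiment) called 0 members and 0 of 55681 probes. With the filter added to the block, 354 of 25540 probes were called. Taking the 4 ratios of siFxr1 to siControl arrays as observations called 1107 of 55681. The other fits of all 4 arrays called no probe at all, so their 0 is not a result about the members. Under the 75th percentile scaling the member median moved to 0.218, the probes lower in both experiments to 3 and the near-unchanged bright probes to 6. Centring on the median of measured probes, chosen after seeing the data, gave 0.236, with 94 higher and 2 lower. With 1 probe per gene, so fewer probes counted, there were 38 higher, 3 lower, 45 near-unchanged and 0 at least 2-fold different. A near-unchanged limit of 0.1 left 30, and a limit of 1.5-fold gave 2 probes. Leaving out 1 array gave medians from -0.00667 to 0.17 and, since the remaining experiment was then used alone, between 44 and 51 probes lower and between 105 and 113 higher. Leave-one-out differences of single probes ran from 0.124 (without siFxr1 of experiment 1) to 1.32 for Rps25, from -0.38 to -0.0101 for Rpl22, from -0.413 to -0.0478 for Rps15, from 0.232 to 0.611 for Rpl23, from 0.545 to 0.864 for Rpl31, from 1.01 to 1.61 for Rpl30, from -0.372 to 1.22 for Rpl39, from -0.848 to 0.124 for Rpl15, from -0.416 to 0.057 for Rpl27a and from -0.342 to 0.0598 for Rps12, whose difference was 0.0142 under the 75th percentile scaling. The cause of these moves was not tested. Alternatives restricted to NM accessions left all probes in place.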
